A study of Mus musculus with 5 samples.

Results

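The genes described here are Sprr1a, a small proline-rich protein of the squamous cell envelope, and the kallikreins Klk6, Klk8, Klk10 and Klk11, secreted serine proteases. They are 5 of the 31053 genes in the count matrices and were taken by symbol, with the identifiers ENSMUSG00000050359 for Sprr1a, ENSMUSG00000050063 for Klk6, ENSMUSG00000064023 for Klk8, ENSMUSG00000030693 for Klk10 and ENSMUSG00000067616 for Klk11. The set was put together with the difference between B20-4.1.1 and isotype tumors in epithelial cells in view, so that difference is described below and carries no test. Tumors came from MMTV-PyMT mice on the FVB/N background, whose mammary epithelium makes the polyoma middle T antigen from the promoter of the mouse mammary tumor virus, and every mouse of both groups carried the transgene. From 7 weeks of age, mice received 5 mg/kg of isotype mouse IgG2a or of the VEGF-A-blocking antibody B20-4.1.1 into the peritoneum, with 2 injections per week for 6 weeks. Viable cells were sorted and sequenced by droplet-based single-cell RNA-seq in 5 pools of 3 oligo-tagged tumors, 2 isotype pools with 6 tumors and 3 B20-4.1.1 pools with 9 tumors. The tumor was the replicate, and because each pool held a single treatment, pool and treatment cannot be told apart.

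Of 30340 deposited cells 19533 were kept, and 13412 of these were epithelial, meaning at least 5 unique molecular identifiers (UMIs, each a single captured transcript) over Epcam, Krt8 and Krt18 and no Ptprc, the leukocyte gene. Isotype tumors gave 8101 epithelial cells with a median of 8235 UMIs and B20-4.1.1 tumors 5311 with a median of 9357, and single tumors gave 80 to 1931. No cell barcode was shared between tumors of a pool, and 94 of 30246 distinct barcodes recurred in another pool. Levels are UMIs of a gene per 10000 UMIs of the epithelial cells of a tumor. The kit captures transcript ends, so levels of different genes were compared without a length correction.

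Squamous epithelia end their differentiation by building a cornified envelope, a protein shell crosslinked under the membrane, into which small proline-rich proteins such as Sprr1a are laid. Kallikreins are secreted as inactive precursors, activate each other and cut the proteins that hold squames together, and inhibitors such as Spink5 hold them in check. Luminal mammary cells normally make keratins 8, 18 and 19 and milk proteins, and squamous traits are a rare departure from this in mammary tumors.

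The kallikrein members lie in the same stretch of chromosome 7 and Sprr1a lies on chromosome 3. In RefSeq on GRCm38.p6, Sprr1a is chr3:92483954-92485881, Klk11 chr7:43774617-43779263, Klk10 chr7:43781054-43785410, Klk8 chr7:43797532-43803826 and Klk6 chr7:43824438-43832027, and the 4 kallikreins span 57.4 kb. The 250 bases before annotated starts of Sprr1a, Klk6, Klk8 and Klk10 are shown as a description, and their likeness to each other was not measured. They are chr3:92485882-92486131 on the minus strand for Sprr1a and, on the plus strand, chr7:43824294-43824543 for the first Klk6 start, chr7:43797327-43797576 for Klk8 and chr7:43780804-43781053 for Klk10. The listed starts of Klk6 and Klk8 lie within the span of the gene, which has further starts. Each is written 5′ to 3′ along its gene, and capitals mark the motifs searched on both strands.
Sprr1a: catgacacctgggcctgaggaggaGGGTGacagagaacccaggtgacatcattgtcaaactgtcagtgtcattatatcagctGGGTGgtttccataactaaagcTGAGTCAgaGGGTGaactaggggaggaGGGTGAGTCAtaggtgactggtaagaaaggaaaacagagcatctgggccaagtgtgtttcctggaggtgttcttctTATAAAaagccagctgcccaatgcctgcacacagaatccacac
Klk6: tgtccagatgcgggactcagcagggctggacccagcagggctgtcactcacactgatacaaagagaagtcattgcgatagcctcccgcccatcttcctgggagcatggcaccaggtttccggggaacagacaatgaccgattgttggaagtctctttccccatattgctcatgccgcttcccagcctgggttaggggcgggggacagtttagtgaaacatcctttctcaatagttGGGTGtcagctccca
Klk8: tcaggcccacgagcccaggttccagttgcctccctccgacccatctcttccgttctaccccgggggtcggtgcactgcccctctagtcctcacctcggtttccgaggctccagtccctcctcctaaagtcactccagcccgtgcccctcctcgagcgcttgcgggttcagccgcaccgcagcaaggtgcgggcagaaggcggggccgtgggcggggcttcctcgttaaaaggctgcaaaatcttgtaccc
Klk10: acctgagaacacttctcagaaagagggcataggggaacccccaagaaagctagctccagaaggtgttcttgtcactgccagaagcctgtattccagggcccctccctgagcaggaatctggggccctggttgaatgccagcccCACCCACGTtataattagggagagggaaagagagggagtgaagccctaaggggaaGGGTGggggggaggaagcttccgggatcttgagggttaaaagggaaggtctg
Sprr1a held the AP-1 motif TGANTCA at 2 places, starting at -146 and -116 from the start, the KLF motif GGGTG at 4 places and a TATAAA at -43, and its AP-1 match at -116 overlaps a GGGTG. Klk6 held a single GGGTG at -15 in the stretch shown and no motif before its second start. Klk8 held none of the 4 motifs. Klk10 held the hypoxia response core ACGTG at -103, overlapping a GGGTG, and a further GGGTG at -52. Klk11 held ACGTG at -48 and GGGTG at 3 places before its first start and none before its second. Of 32851 RefSeq promoter stretches of this length, 6.75% held TGANTCA, 16.6% ACGTG, 52.0% GGGTG and 12.4% TATAAA. A match is a run of letters and not a measured binding site.

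In isotype tumors the members were scarce, with Klk10 the most abundant. Klk10 ranged from 0.0789 to 0.283 UMIs per 10000 in the 6 isotype tumors, above every isotype value of the other members. Below it came Klk8 (median 0.0168), Klk6 (median 0.00616), Klk11 (median 0.00486) and Sprr1a (median 0.00188), and in this order each overlapped its neighbor across tumors. In B20-4.1.1 tumors the order of the medians was Klk10, Sprr1a, Klk6, Klk8 and Klk11, and all neighbors overlapped.

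Sprr1a differed most between the groups. It was 0.00104, 0.00188 and 0.0039 UMIs per 10000 in the lowest, median and highest isotype tumor, and 0.00654, 0.123 and 2.59 in the lowest, median and highest B20-4.1.1 tumor. The groups did not overlap in level, as the lowest of the 9 B20-4.1.1 tumors exceeded the highest of the 6 isotype tumors. Few UMIs set this gap. The highest isotype tumor held 4 Sprr1a UMIs. B20-4.1.1 pool 1 tumor 1 held 6, and B20-4.1.1 pool 2 tumor 3 held 2 (0.0118 per 10000). With every cell thinned to an equal depth, these B20-4.1.1 tumors had no cell with Sprr1a. The thinned share of cells with a UMI exceeded every isotype share in 7 of 9. The share of all genes without overlap was not counted, nor the share that exceeds the isotype range in a given number of tumors. The members were chosen on this contrast, so nothing is read from such counts here or below. The means were 0.0022 ± 0.0012 (SD, n = 6) and 0.491 ± 0.836 (SD, n = 9). In counts, isotype tumors held 17 Sprr1a UMIs in all and B20-4.1.1 tumors 3072.

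Klk6, a protease of skin and brain, reached similar heights in fewer tumors. Its lowest, median and highest values were 0.00292, 0.00616 and 0.0237 UMIs per 10000 in isotype tumors (mean 0.00846 ± 0.00786, SD, n = 6) and 0.00327, 0.0852 and 3.17 in B20-4.1.1 tumors (mean 0.483 ± 1.02, SD, n = 9). The groups overlapped, with 6 of 9 B20-4.1.1 tumors above the highest isotype tumor and 3 within the isotype range. B20-4.1.1 pool 2 tumor 2 held 1922 of the 2598 Klk6 UMIs of its group.

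Klk8, also called neuropsin, was 0.00623, 0.0168 and 0.0269 UMIs per 10000 in the lowest, median and highest isotype tumor and 0.0218, 0.0504 and 0.489 in the lowest, median and highest B20-4.1.1 tumor. Here 8 of 9 B20-4.1.1 tumors exceeded the highest isotype tumor. The means were 0.0166 ± 0.0076 (SD, n = 6) and 0.104 ± 0.147 (SD, n = 9).

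Klk10 and Klk11 had the smallest ratios of group means, 1.88 and 2.76, while by medians Klk11 (3.24) was close to Klk8 (3.01). Klk10 was 0.134 at the isotype median and 0.277 at the B20-4.1.1 median, with means of 0.172 ± 0.087 (SD, n = 6) and 0.322 ± 0.256 (SD, n = 9), and the isotype range was exceeded in 4 of 9. B20-4.1.1 pool 2 tumor 1 gave the lowest Klk10 value of all, 0.0111, from 1 UMI in 80 cells. Klk11 was 0.00208, 0.00486 and 0.0119 in the lowest, median and highest isotype tumor and 0, 0.0157 and 0.0383 in B20-4.1.1, and 6 of 9 lay above the isotype range. The B20-4.1.1 tumor at 0 had 284 epithelial cells, which allows a share of up to 1.06% of cells with a UMI.

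Across all genes in epithelial cells, 14.4% of 12232 tested genes passed an adjusted p of 0.05 between the groups (7.41% higher and 6.95% lower in B20-4.1.1, edgeR quasi-likelihood test). Nothing is read from the members against this share, since they were chosen on this contrast. The share of epithelial cells with a UMI averaged 0.104% in isotype and 1.65% in B20-4.1.1 tumors for Sprr1a, 0.369% and 1.32% for Klk6, 1.14% and 3.34% for Klk8, 2.43% and 3.32% for Klk10, and 0.412% and 1.25% for Klk11. With every cell thinned to 2500 UMIs, the averages were 0.0493% and 0.842% for Sprr1a, 0.187% and 0.855% for Klk6, 0.545% and 1.00% for Klk8, 1.37% and 1.67% for Klk10, and 0.135% and 0.402% for Klk11.

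**Figure D1:**
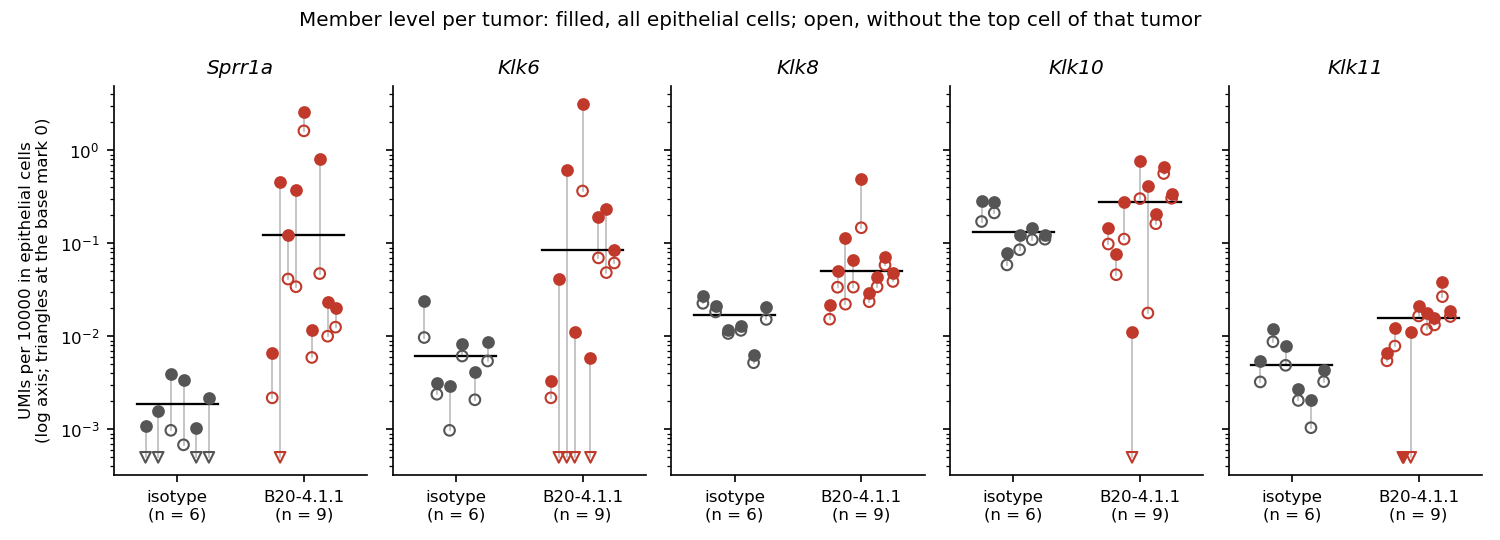
Level of each member per tumor in epithelial cells (vertical log axis, UMIs per 10000, triangles mark 0), 6 isotype and 9 B20-4.1.1 tumors. Filled points use all epithelial cells and open points leave out the tumor's cell with the most UMIs of that gene, gray lines join them and black lines are medians of the filled points. Sprr1a is higher in all 9 B20-4.1.1 tumors than in any isotype tumor, and for Klk6 4 B20-4.1.1 tumors fall to 0 without a single cell. Few UMIs set the Sprr1a gap, the members were chosen on this contrast, and the share of all genes without overlap was not counted.

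Much of the B20-4.1.1 signal sat in very few cells. For Sprr1a, 17 of 5311 B20-4.1.1 epithelial cells with at least 10 UMIs held 97.6% of its UMIs, 9 cells held 90%, and the top cell alone held 926 UMIs or 30.1%. For Klk6, 14 such cells held 95.2% and a single cell held 1701 UMIs or 65.5%. For Klk8, 6 such cells held 58.7%, the top cell 208 UMIs or 38.3%, and 76.9% of the cells with any Klk8 had a single UMI.

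Klk10 was spread over more cells in both groups. Its cells with at least 10 UMIs numbered 34 in isotype tumors, with 69.2% of 1239 UMIs, and 39 in B20-4.1.1 tumors, with 75.6% of 1741 UMIs. Klk11 never exceeded 4 UMIs in an isotype cell or 7 in a B20-4.1.1 cell. Isotype Sprr1a and Klk6 also lacked a high tail, with at most 4 and 13 UMIs in a cell.

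Leaving out each tumor's top cell for a gene changed the picture by member. For Sprr1a, 8 of 9 B20-4.1.1 tumors still lay above the highest isotype tumor, with a median of 0.0125 UMIs per 10000 where the isotype median was 0. This comparison is at the floor. Each isotype tumor had Sprr1a in only 1 or 2 cells, so leaving out a cell brought it to 0 or 1 UMI by construction. B20-4.1.1 pool 2 tumor 3, pool 1 tumor 1 and pool 2 tumor 1 were left with 1, 2 and 3 UMIs. For Klk6 only 4 of 9 did, and the B20-4.1.1 median, 0.00218, lay below the isotype median of 0.0039. The counts above the isotype range were 7 of 9 for Klk8, 3 of 9 for Klk10 and 5 of 9 for Klk11. B20-4.1.1 pool 2 tumor 2 carried much of the differences of the means too, which went from 0.489 to 0.226 for Sprr1a, from 0.475 to 0.139 for Klk6, from 0.0871 to 0.0389 for Klk8 and from 0.15 to 0.0952 for Klk10 when that tumor was left out, while Klk11 went from 0.0101 to 0.00934.

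**Figure D2:**
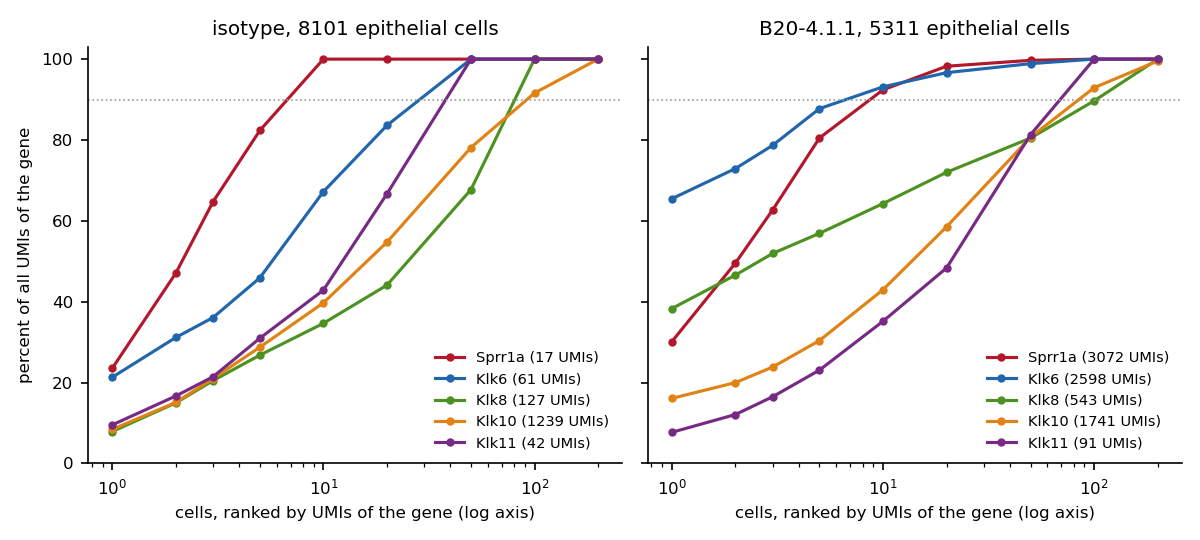
Cumulative percent of the UMIs of each member (vertical axis) against cells ranked by their UMIs of it (horizontal log axis), for isotype (left) and B20-4.1.1 (right) epithelial cells, with a dotted line at 90%. In B20-4.1.1 tumors the top Klk6 cell holds 65.5% and the top Sprr1a cell 30.1%, while the Klk10 curve is similar in both groups.

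The top cells were not alike. The cell with the most Sprr1a, from B20-4.1.1 pool 3 tumor 1, had 926 Sprr1a UMIs among 11345, with 115 of Krtdap and 12 of Sprr1b, both squamous genes, 150 of Ly6d, 105 of Krt17 and 46 of Epcam, and none of Krt8 or Krt18. The second, from B20-4.1.1 pool 2 tumor 2, had 597 Sprr1a UMIs with 120 of Krt8, 125 of Krt18 and no kallikrein member. The third, from B20-4.1.1 pool 1 tumor 2, had 403 with 37 of Klk6, 28 of Klk10, 59 of Krt16 and 25 of Krt6a, the stress keratins.

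The cell with the most Klk6, from B20-4.1.1 pool 2 tumor 2, was also the top cell for Klk8 and Klk10. It held 1701 Klk6, 280 Klk10, 208 Klk8 and 2 Klk11 UMIs, with 430 of Klk7 and 347 of Klk14, further kallikreins of the epidermis, and no Sprr1a. It had 100 UMIs of Krt7, 6 of Epcam, 1 of Krt18 and none of Krt8. The next cell by Klk6, from B20-4.1.1 pool 1 tumor 3, had 194 Klk6 UMIs with 29 each of Klk8 and Klk10, 13 of Sprr1a, 45 of Krt14 and 41 of Krt6a.

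Sorting the high cells by their leading member gave 3 kinds, a division made after the values were seen. Cells with at least 10 Klk6 UMIs numbered 15, of which 14 came from 6 B20-4.1.1 tumors and 6 from pool 2 tumor 2. Klk8 was found in 13 of the 15, Klk10 in 13, Klk14 in 7, Klk7 in 6 and Sprr1a in 6, and all 15 had Krt7 and 14 had Sbsn, a suprabasal protein. Krt14, a basal keratin, was found in 11 and Krt80 in 8.

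Cells with at least 10 Klk10 UMIs and fewer than 10 of Klk6 numbered 64, from 6 isotype (34 cells) and 8 B20-4.1.1 tumors (30 cells). None of the 64 had a Sprr1a UMI, but Sprr1a was in only 0.5% of all epithelial cells, so that 64 cells can show little here. Krt8 was in 63, the milk casein Csn3 in 61, the iron-binding protein Lcn2 in 61 and Klk11 in 17. Csn3 stood at 175 UMIs per 10000 in them and at 184 in the 12660 epithelial cells with no member UMI, Lcn2 at 54.8 and 89.9, and Krt19 at 19.6 and 4.42.

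Cells with at least 10 Sprr1a UMIs and fewer than 10 of Klk6 numbered 13, all from 4 B20-4.1.1 tumors, with 10 from pool 2 tumor 2. Klk8, Klk10 and Klk11 were absent from all 13 and Klk6 was in 1, while Ly6d was in all 13. The division sets this absence in part. The 4 cells with at least 10 UMIs of both Sprr1a and Klk10, from 4 tumors, all counted as Klk6 cells. With 13 cells and members this rare, the absence says little. Their simple keratins were high, with Krt19 at 65.1, Krt18 at 87.2 and Krt8 at 53.7 UMIs per 10000 against 4.42, 16.1 and 11.1 in cells with no member UMI. Csn3 was 7.48 against 184 and Lcn2 5.55 against 89.9. The cells with no member UMI came from all tumors, while 10 of the 13 came from pool 2 tumor 2. Over all its epithelial cells that tumor had Krt19 at 9.88, Krt18 at 31.0, Krt8 at 21.0 and Csn3 at 170. The part of these contrasts that lies between tumors was not tested. Since Krt8, Krt18 and Epcam also define the epithelial gate, a level of these 3 genes is in part set by it.

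Markers of other cell types were low in the 3 kinds, with exceptions given here. No cell of them had Ptprc, which the gate fixes, and none had Acta2 or another of 5 myoepithelial markers. Of 7 interfollicular skin markers, the Klk6 cells held 1 and 0.26 UMIs per 10000 summed, the Klk10 cells 2 and 0.549, the Sprr1a cells 4 and 5.98, and the cells with no member UMI 5 and 0.26. Of the 5.98 in the Sprr1a cells, Krtdap gave 5.55, all from 1 of the 13 cells. That cell is the top Sprr1a cell, with 30.1% of the Sprr1a UMIs of B20-4.1.1 epithelial cells, so the sum is not a trait of the kind. The envelope proteins Lor and Ivl had no UMI in any high cell. T-cell markers summed to at most 0.118 per 10000 in the high cells and 0.141 in the cells with no member UMI, macrophage markers to at most 0.157 and 0.255, and neutrophil markers to at most 1.36 and 1.56. In the Sprr1a cells 1 of 5 fibroblast markers was found, at 1.88 per 10000 against 0.197 for the list in the cells with no member UMI. The part of skin or stromal RNA in the Sprr1a values was not tested.

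**Figure D3:**
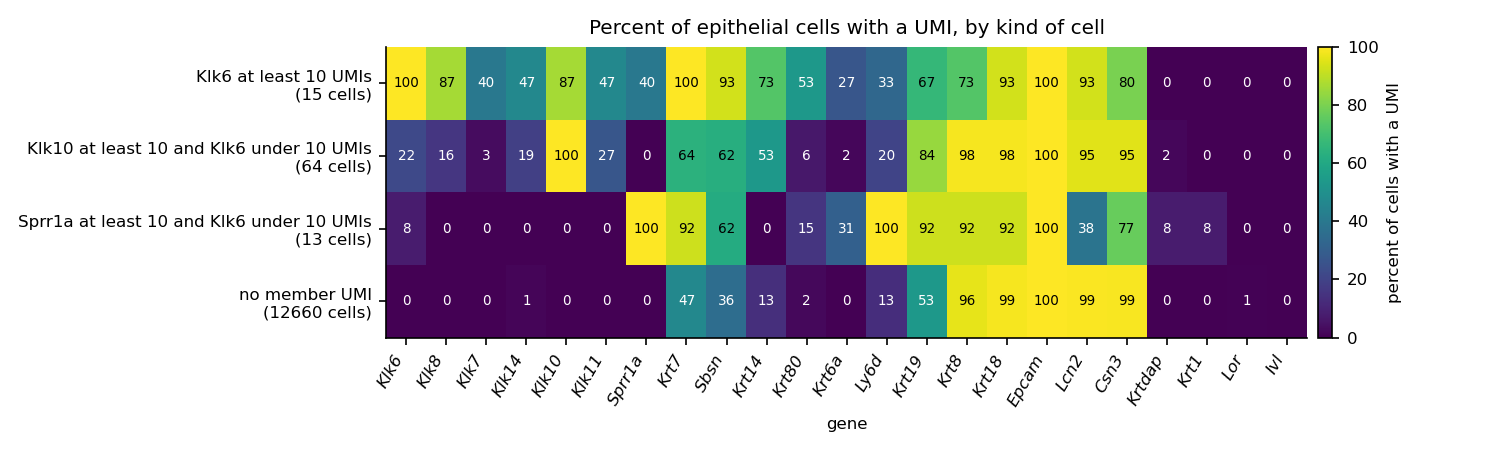
Percent of epithelial cells with a UMI of each gene (columns, color and printed value) in the 3 kinds of high cells and in the 12660 cells with no member UMI (rows). Klk6 cells hold further kallikreins and Krt7, nearly all Klk10 cells hold Krt8, Lcn2 and Csn3, as do the cells with no member, and Sprr1a cells hold Ly6d in all 13 and no Klk8, Klk10 or Klk11. The leading gene of each kind is at 100 by construction. The 4 cells with at least 10 UMIs of both Sprr1a and Klk10 count as Klk6 cells, which in part sets the absence of Klk10 from the Sprr1a cells.

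Over all 13412 epithelial cells, 622 had a single member, 101 had 2, 15 had 3, 12 had 4 and 2 had all 5, both from B20-4.1.1 tumors. Kallikrein pairs were found in the same cells more often than their shares within each tumor give. Klk6 and Klk10 met in 46 cells of 13 tumors where 4.55 would be given by independence, 10.1 times (95% exact Poisson interval 7.39 to 13.5). Klk6 and Klk8 met in 37 cells against 2.94, 12.6 times (8.85 to 17.3), and Klk10 and Klk11 in 48 against 3.83, 12.5 times (9.23 to 16.6).

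The overlap of Klk10 and Klk11 was a larger share of the Klk11 cells, as 47.5% of Klk11 cells had Klk10 and 11.9% of Klk10 cells had Klk11. Not all kallikrein pairs were this high, as Klk8 and Klk10 met in 41 cells (4.77 times, 3.43 to 6.48). Sprr1a was found in 9 cells with Klk6 (7.36 times, 3.36 to 13.97), 9 with Klk8 (3.39 times, 1.55 to 6.44), 8 with Klk10 (3.15 times, 1.36 to 6.21) and 4 with Klk11 (4.20 times, 1.14 to 10.8). Isotype tumors had the kallikrein pairs as well, for example Klk6 with Klk10 in 14 cells of all 6 tumors against 0.738 (19.0 times, 10.4 to 31.8). With each cell thinned to 2500 UMIs the ratios of all 10 pairs were higher, from 7.02 for Sprr1a and Klk10 to 27.2 for Klk6 and Klk8, with Klk6 and Klk10 at 17.6 (11.3 to 26.2) and Sprr1a and Klk6 at 14.8 (5.43 to 32.2). The intervals cover counting error only, and the difference between pairs was not tested.

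Within B20-4.1.1 tumors, the genes whose level across epithelial cells was most like each member were found by the mean within-tumor Pearson correlation over 9 tumors and 11959 genes. For Klk6 these were Asprv1 (0.36), a protease of the stratified epidermis, and Klk14 (0.34), followed by Hopx and Krt80. Klk14 also led for Klk8 (0.26), Klk10 (0.27) and Klk11 (0.23, over 8 tumors), and Asprv1 was among the leading 3 for each. For Sprr1a the leading genes were Fam25c (0.40) and S100a14 (0.28), an epithelial calcium-binding protein. Among the members, the closest pair was Klk6 with Klk8 (0.46) and the farthest Sprr1a with Klk11 (0.10). All cells of a tumor share a library, and with counts this sparse single cells set these values, as shown by the range of the Klk6 and Klk14 correlation from -0.02 to 0.87 over tumors.

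Epithelial cells were next compared with the immune cells of the same tumor, which shows the level that RNA free in the suspension could give. T-like cells, named from Cd3d, Cd3e, Cd3g, Trac and Trbc2, had the highest Klk8 level. They held 1.44 ± 0.34 Klk8 UMIs per 10000 against 0.0689 ± 0.12 in epithelial cells (SD, n = 15 tumors), with the T-like level higher in 15 of 15 tumors (exact sign-flip permutation p = 6.1e-05, the smallest possible, adjusted p = 0.000203 over 10 tests). A Klk8 UMI was found in 278 of 567 isotype T-like cells (49.0%) and 948 of 1947 B20-4.1.1 T-like cells (48.7%), at a median depth of 4568 and 3939 UMIs.

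The other members were higher in epithelial cells. Klk10 was above the T-like level in 15 of 15 tumors (0.262 against 0.00164, adjusted p = 0.000203 from the same exact test). In the 567 isotype T-like cells none of the 4 had a UMI, which allows up to 0.529% of cells, and at the epithelial level of the same tumors these cells would have given 46.9 UMIs of Klk10 but only 0.664 of Sprr1a, 2.18 of Klk6 and 1.46 of Klk11. For these 3 the isotype tumors cannot show a difference at this depth, so the comparison is given over the 9 B20-4.1.1 tumors, a choice made after the data were seen. There Sprr1a was higher in epithelial cells in 9 of 9 tumors (0.491 against 0.0063), Klk6 in 8 (0.483 against 0.0054) and Klk11 in 7 (0.0158 against 0.00273). The members were chosen with the epithelial levels of these 9 tumors in view, so no p is given for them alone. Tests over all tumors, also those against macrophage-like cells below, include the same values and are tilted by this choice. The Klk11 difference over all tumors did not pass with cells thinned to 2500 UMIs (exact adjusted p = 0.209).

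Against macrophage-like cells (n = 14 tumors), epithelial levels were higher for Klk6 (0.271 against 0.00302, exact permutation adjusted p = 0.00314), Klk10 (0.261 against 0.00568, exact adjusted p = 0.000244) and Klk11 (0.0126 against 0, exact adjusted p = 0.000244). The choice of members used these epithelial values, so these p-values are no support on their own. At the epithelial level, isotype macrophage-like cells would have given 112 UMIs of Klk10, but only 5.15 of Klk6, 4.03 of Klk11 and 1.23 of Sprr1a. Sprr1a was 0.308 against 0.00722 and higher in 12 of 14 tumors, without passing (exact adjusted p = 0.0567), and it passed when cells were thinned (exact adjusted p = 0.00651). Klk8 was 0.0657 in epithelial and 0.0242 in macrophage-like cells, higher in 8 of 14 tumors (exact adjusted p = 0.292). Of 19 endothelial-like cells 6 held Klk8, 10 UMIs in all, too few cells for a test.

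**Figure D4:**
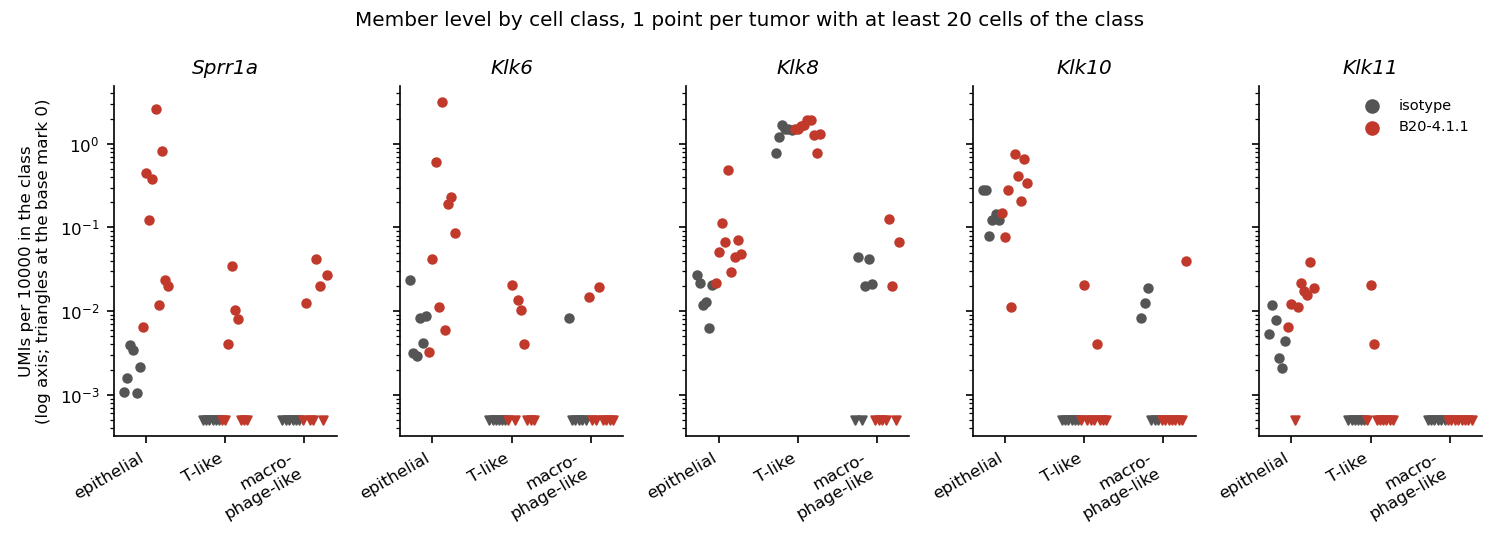
Level of each member (vertical log axis, UMIs per 10000, triangles mark 0) in epithelial, T-like and macrophage-like cells, with a point for every tumor that had at least 20 cells of the class, isotype in gray and B20-4.1.1 in red. Klk8 is highest in T-like cells in all 15 tumors, at 1.44 on average, while the other members are mostly at 0 outside epithelial cells.

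Pooled over tumors with 21 to 642 T-like cells, T-like cells held 62.4% of all Klk8 UMIs in the kept cells and epithelial cells 21.5%. Per tumor the T-like share ran from 11.4% to 90.1%, was over 50% in 8 of 15 tumors, and was below the epithelial share in 5 of 15. In T-like cells the level ranged from 0.769 to 1.69 over isotype tumors and from 0.766 to 1.91 over B20-4.1.1 tumors, which overlap almost entirely. Among T-like cells with a Cd8a or Cd8b1 UMI, 59.5% had Klk8, and among those with Cd4 37.6% did. The 2 kinds lay closer in isotype tumors, at 52.3% and 43.6% of cells and 1.54 and 1.44 UMIs per 10000, with only 39 Cd4 cells. In B20-4.1.1 tumors the shares were 61.7% and 37.1%. In the 3 tumors with enough cells of both kinds, all B20-4.1.1, Klk8 was 2.39 ± 0.18 and 1.24 ± 0.07 UMIs per 10000, higher with Cd8 in 3 of 3 (exact permutation p = 0.25, the smallest that 3 tumors allow).

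A comparison added after the data were seen set Klk8-carrying T-like cells, 793 of 2514 after thinning, against the other T-like cells of the same 15 tumors. Of 3051 genes tested, 9 passed (0.295%, with 0.0656% higher and 0.229% lower, edgeR quasi-likelihood test with tumor as block). Ly6c2 (log2 fold change 0.86 ± 0.15 SE, adjusted p = 0.000212) and Cd8b1 (0.59 ± 0.11, adjusted p = 0.000525), the beta chain of CD8, were higher. The 7 lower genes were the histone gene Hist1h1b at -2.74 (adjusted p = 2.5e-12, lower in 15 of 15 tumors), Cenpf at -2.57, Mki67 at -2.08, Pclaf at -1.90, Top2a at -1.25, Stmn1 at -0.84 and Hmgb2 at -0.52.

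The T-cell level bears on the epithelial Klk8 values. T-cell markers summed to 0.0856 UMIs per 10000 in isotype epithelial cells and 0.332 in B20-4.1.1 epithelial cells, against 62.1 in T-like cells. At the Klk8 to T-marker ratio of T-like cells, RNA carried with those markers amounts to 0.00195 Klk8 UMIs per 10000 in isotype and 0.00897 in B20-4.1.1 epithelial cells, 1.4% to 48.1% of the epithelial Klk8 of a tumor (mean 16.5%). In epithelial cells without any T-marker UMI, Klk8 was 0.016 ± 0.0066 (SD, n = 6) in isotype and 0.123 ± 0.206 (SD, n = 9) in B20-4.1.1 tumors. Among single tumors, B20-4.1.1 pool 2 tumor 1 went from 0.0664 over all its epithelial cells to 0.017 in those without a T-marker UMI, within the isotype range. The part of T-cell RNA in the epithelial Klk8 difference was not tested.

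Cells that carry members were then compared with the other epithelial cells of the same tumor, with all cells thinned to 2500 UMIs, a carrier having at least 2 member UMIs and the others none. Only 2 tumors, both of B20-4.1.1 pool 3, had at least 20 carriers, 48 in all, and there 27 of 7742 genes passed (0.349%, with 0.258% higher and 0.0904% lower, edgeR quasi-likelihood test with tumor as block). The 20 higher genes included Aldh1a3, which makes retinoic acid (log2 fold change 3.47 ± 0.30 SE, adjusted p = 3.7e-05), Krt17 (3.70), Spink5 (3.21), Cpe (2.57), Lgals7 (2.27), Krt7 (2.24), Cryab (2.23), Sbsn (2.16) and Dmkn (2.11). Cst6, an inhibitor of cysteine proteases in skin, was at 8.00, but its level over all epithelial cells was 3.72 UMIs per 10000 in B20-4.1.1 pool 3 tumor 2 and at most 0.115 in every other tumor. The 7 lower genes were S100a8, Saa2 (-5.50), Clic6 (-4.18), Chil1 (-4.12), Saa1 (-3.80), Col9a1 (-2.83) and Aqp5 (-2.41). A second random thinning gave 0 genes past the threshold by edgeR, with 430 at an unadjusted p under 0.05, and DESeq2 gave 11, so single genes from these 2 tumors are uncertain. Aldh1a3, Krt17, Spink5, Cpe, Cryab and Cst6 were scarce outside the carriers, and their values are descriptions only.

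A wider comparison, added after the data were seen, used the 11 tumors with at least 5 carriers, 147 in all. Of 4845 genes 487 passed (10.1%, 5.72% higher and 4.33% lower in carriers), 126 of them in the same direction in all 11 tumors (30 higher and 96 lower). The 2 tumors above and their 48 carriers are part of this comparison, so it is no independent check of it. Counting Klk10 UMIs only, 110 of the 156 carriers of all tumors still qualified. Counting Sprr1a UMIs only, 19 did, 11 of them in B20-4.1.1 pool 2 tumor 2. The comparison is thus mainly one of Klk10 cells and need not hold for Sprr1a cells. The carriers had more of the suprabasal proteins Dmkn (log2 fold change 2.80 ± 0.23 SE, 13.6 against 1.87 UMIs per 10000, adjusted p = 3.7e-15) and Sbsn (2.29), of Klf4 (2.21), a transcription factor of barrier epithelia, and of Pglyrp1 (2.07), Ltf (2.06), Crip1 (2.00), Krt19 (1.94), Anxa1 (1.93) and Hspb1 (1.75), each higher in 11 of 11 tumors. Lower in 11 of 11 tumors were the acute-phase genes Saa1 (-3.77 ± 0.34 SE, 0.435 against 5.92 UMIs per 10000, adjusted p = 6.2e-14) and Saa2 (-3.18), and Scgb2b27 (-3.39), Clic6 (-3.10), Chil1 (-2.84), Col9a1 (-2.73), Hey1 (-2.70), Arhgef6 (-2.65) and Sparcl1 (-2.32). Homer2 had a single UMI in the carriers, 0.0272 per 10000 against 0.616 in the other cells, and was lower in 11 of 11 tumors. Hey1, Clic6, Arhgef6 and Col9a1 had 5, 8, 9 and 11 UMIs in the carriers of all 11 tumors. A tumor without a carrier UMI of a gene counts as lower, so for such scarce genes 11 of 11 says little.

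**Figure D5:**
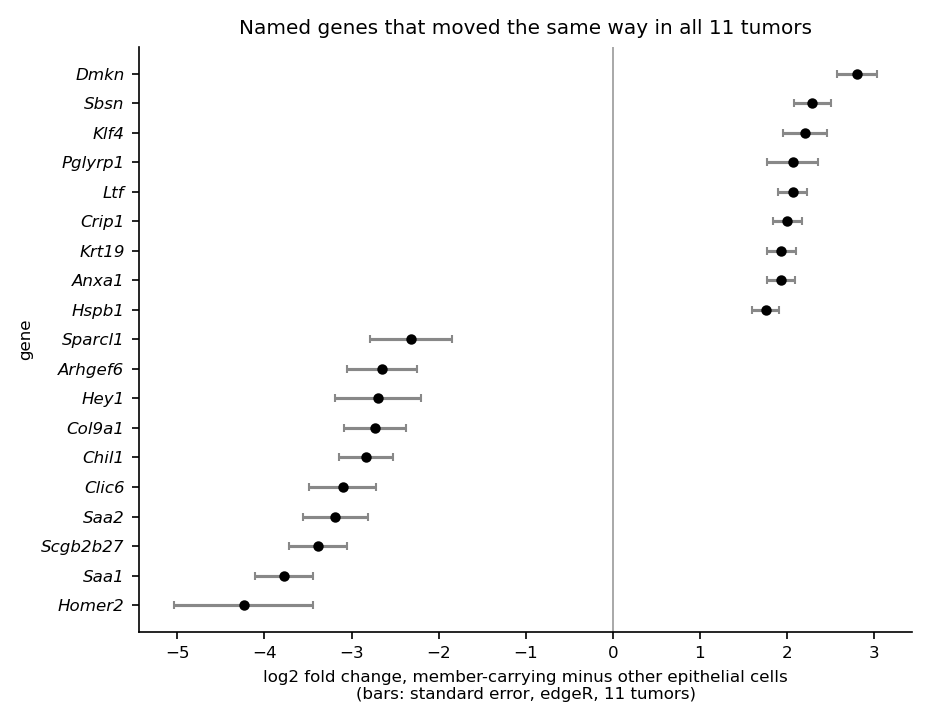
Log2 fold change of member-carrying against the other epithelial cells of the same tumor (horizontal axis, bars are standard errors, edgeR, 11 tumors) for the genes named here that moved the same way in all 11 tumors. Dmkn is the highest at 2.80, and Homer2, which rests on a single UMI in the carriers, is the lowest. Hey1, Clic6, Arhgef6 and Col9a1 rest on 5 to 11 UMIs in the carriers.

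A gene seen almost only in carriers passes the filter on low counts through them, so lists of related genes were counted over the 2665 genes whose level in the other cells alone let them in, of which 150 were higher and 201 lower in carriers. Among other cornified envelope genes 3 of 3 were higher (Dmkn, Sbsn and Anxa1), beside a median log2 fold change of -0.04 over all 2665. The single keratin of squamous, stress and basal cells that entered, Krt14, was higher (1.80 ± 0.30 SE, adjusted p = 7.4e-06, edgeR). Of 15 luminal and milk genes 8 were higher, with Krt19 at 1.94, Krt7 at 1.92 and Krt8 at 1.22, and 2 were lower, the casein Csn3 (-0.82) and the luminal factor Gata3 (-0.70). The caseins moved both ways, as Csn2 (1.30, higher in 6 of 11 tumors) and Csn1s1 (1.28, higher in 8 of 11) were among the 8 higher genes. Among 8 squamous transcription factors Klf4 and Jund (0.72) were higher, and of 6 inhibitors, activators and substrates of kallikreins only Wfdc12 passed, with a single UMI in carriers and 0.58 per 10000 in the others, and of 9 hypoxia genes none passed.

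Other kallikreins entered only through the carriers. Klk7, which cuts corneodesmosomes, had 183 thinned UMIs in the carriers and 2 in all other cells, and Klk14, an activator of other kallikreins, had 161 and 41. They were higher in 6 and 5 of 11 tumors, so not every carrier population held them. Krt17 (111 UMIs in carriers, 583 in others), Spink5 (57 and 719), Krt80 (21 and 80), Krtdap (44 and 60) and Krt6a (10 and 27) were of the same kind, and no call is read from them.

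The study scored hypoxia by Vegfa, Slc2a1 and Car9. In the 2 tumors with at least 20 carriers the mean log score was 0.224 in carriers and 0.133 in the others (exact permutation p = 0.5, the smallest possible). Over the 11 tumors it was 0.107 and 0.116, a difference of -0.00863 ± 0.0902 (SD), higher in carriers in 4 of 11 (exact permutation p = 0.767). A difference in this score between cells with and without the members was not detectable here.

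The genes around the members were last set against the treatment in all epithelial cells, where the median change over the 12232 genes was -0.01 on the log2 scale. All calls in this account take tumors as replicates, and nearly all are lost when limma-voom takes the pool as a random effect (33 genes pass in place of 1757, with a consensus correlation of 0.54). Of 22 other kallikreins 4 passed the filter and 0 the test (edgeR, 3 at an unadjusted p under 0.05), with Klk7 at 3.17 ± 1.16 SE (adjusted p = 0.072) and Klk14 at 2.03 ± 0.86 (adjusted p = 0.115), and 7 of the 22 had no UMI in any epithelial cell. Of 10 other cornified envelope genes tested, Dmkn (1.28), Anxa1 (0.96) and Sbsn (0.90) were higher in B20-4.1.1 tumors and Tchh (-1.23), a hair follicle protein, was lower, around a list median of 0.10. Ivl, Sprr3 and 22 more of the 55 in the files had no UMI. Of 9 keratins tested 4 were higher and none lower, Krt6a (2.99 ± 0.86 SE, adjusted p = 0.029), Krt17 (2.77 ± 0.44, adjusted p = 0.0012), Krt14 (1.42 ± 0.20, adjusted p = 0.00076) and Krt80 (1.29 ± 0.25, adjusted p = 0.0037), with a list median of 1.29. Krt6a had only 41 UMIs in isotype and 176 in B20-4.1.1 epithelial cells, and the 15 Klk6 cells held 94 and the 13 Sprr1a cells 41. Its B20-4.1.1 median, 0.0182 UMIs per 10000, was below the highest isotype tumor, 0.0185, so few cells set this call. With the estimated pool correlation none of these lists kept a call (lowest adjusted p = 0.498 for the kallikreins, 0.126 for the envelope genes and 0.0867 for the keratins, limma).

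Among 17 inhibitors, activators and substrates of kallikreins, 5 were higher, the urokinase receptor Plaur (2.33 ± 0.40 SE, adjusted p = 0.0022), the protease inhibitors Slpi (1.19) and Serpinb5 (0.44), the membrane protease Hpn (0.63) and the protease-activated receptor F2rl1 (0.45). The kallikrein inhibitor Spink5 was lower (-0.63 ± 0.18, adjusted p = 0.028). Of 24 transcription factors 3 were higher, Fosl1 (1.48), Hopx (1.00) and Jund (0.44), and 2 lower, Notch1 (-0.53) and Grhl1 (-0.42), and Fos (0.36, adjusted p = 0.116) and Jun (0.07, adjusted p = 0.631) did not pass. Of 28 hypoxia genes 19 were higher and none lower, led by Ankrd37 (1.44), Stc2 (1.42) and Adm (1.13), with a list median of 0.57. With the estimated pool correlation 4 of them passed, Ankrd37, Bnip3, Pgk1 and Tpi1 (lowest adjusted p = 0.0224, limma), the last pair named after their values were seen. Among 20 luminal and milk genes Krt19 (1.20), Krt7 (0.96), Krt18 (0.64) and Krt8 (0.49) were higher, and the milk genes Csn1s2a (-3.06), Csn1s1 (-2.29) and Lalba (-0.63) lower. With the estimated pool correlation no inhibitor, activator or substrate (lowest adjusted p = 0.0977), transcription factor (0.162) or luminal or milk gene (0.129) passed.

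With counts summed per pool 0 of all genes passed by edgeR (1333 at an unadjusted p under 0.05), and without the first isotype pool 407 did.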

How the data were processed

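Per the labels, 3 tumors per pool were tagged with CellPlex oligos and run with the Chromium Single Cell 3' v3.1 kit. The authors deposited raw UMI counts, 1 matrix per tumor, made with Cell Ranger on mm10 and without normalization. The submitters' processing notes also name bcl2fastq and Seurat 4.3.0. The 5 genes, the gene lists and the rule for named genes were chosen with earlier results of these data known. Named were the members, per list up to 6 genes past the threshold by size of change and 2 others by level, and in carrier comparisons up to 10 genes per direction with mean log2 CPM of at least 5 and the same direction in every tumor, passing over members, Gm, Rik, mt-, Rps and Rpl symbols. For likeness the rule was the 5 genes with the highest mean correlation among those in at least 1% of cells. Genes named in top and high cells, Gata3 and the genes of the T-like comparison were chosen after their values were seen. A few genes that meet the rule are not reported here.

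Cells with at least 2500 UMIs, at most the study's upper limit and at most 20% mitochondrial UMIs were kept, and no doublet caller was run. Depth per tumor is given by the median of 7428 to 11845 UMIs per epithelial cell, and intervals and limits (95%, 3 counts for a 0) cover counting error only. Other classes needed at most 2 epithelial UMIs, at least 3 UMIs over 2 of their own markers and 2 times the next class. Counts were summed per tumor and tested with edgeR 4.0.16 (quasi-likelihood, TMM, filterByExpr, Benjamini-Hochberg 0.05), in R 4.3.3 and Python 3.11.15, with limma 3.58.1 and DESeq2 1.42.0 as alternatives. The labels name a separate mouse for each tumor. The 11-tumor carrier fit used library sizes without TMM and genes with at least 10 expected carrier counts, because other settings gave false calls on simulated counts. Tested on simulated data, 4-fold changes were recovered for 97.5% of 199 genes between treatments (12058 genes tested), 45.7% of 184 for the 2-tumor carriers (7182), 95.0% of 161 for the 11-tumor carriers (4835) and 100% of 183 for the T-like cells (2697), with 3.48%, 2.33%, 0.649% and 6.63% of the calls false. The simulated counts held no pool effect. The treatment figures thus do not cover data with a correlation of 0.54 within pools, as found here, and give no rate of false calls for them. Cell classes were compared by exact two-sided sign-flip permutation tests over tumors. Alternatives were other normalizations, filters, gates, thinning, pool blocks and leaving out pools, tumors or top cells. Tests of the members themselves between treatments were left out, since they were chosen on that contrast.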

Additional observations from a re-analysis of the deposited data

Results flagged for a closer look

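Of 12 pairs of a member measure and a group with 6 to 9 tumors, 4 held a tumor far from the others of its group. The limit used gives about 1 in 20 by chance only for normally distributed, independent values. Single cells set much of these levels, and the same cell was the top cell for Klk6 and Klk8, so that rate does not apply here. B20-4.1.1 pool 2 tumor 2 stood apart for Sprr1a at 2.59 UMIs per 10000, for Klk6 at 3.17 and for Klk8 at 0.489. Isotype pool 1 tumor 1 stood apart for Klk6 at 0.0237, from 22 UMIs of which 13 were in a single cell. The part of single cells in these values is given in the report, and their cause was not tested.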

How the results depend on the processing

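All 50 recomputed differences in mean member level kept their direction, but the spread between B20-4.1.1 tumors (SD 0.836 for Sprr1a and 1.02 for Klk6) exceeds the differences, so that this says little of their size. Klk6 went from 0.475 to 0.139 without B20-4.1.1 pool 2 tumor 2 and to 0.0563 without top cells. Without B20-4.1.1 pool 3 the Klk10 share was lower in B20-4.1.1 tumors by -0.359 percentage points, and with cells thinned to 2500 UMIs the difference for Klk8 was 0.456 and for Klk11 0.266 percentage points. Over leave-one-pool-out fits the level differences ranged from 0.237 to 0.638 for Sprr1a, 0.186 to 0.631 for Klk6, 0.0415 to 0.112 for Klk8, 0.109 to 0.228 for Klk10 and 0.00579 to 0.0148 for Klk11, and the differences in share from 0.547 to 2.18, 0.492 to 1.47, 1.42 to 2.69, -0.359 to 1.62 and 0.632 to 1.2 in the same order. Between cell classes 67 of 70 comparisons kept their call, and thinning left Klk11 against T-like cells at 0.00728 (exact permutation p = 0.209) and Sprr1a against macrophage-like cells at 0.321 (p = 0.00651), the latter also 0.115 without B20-4.1.1 pool 2 (p = 0.0391, same exact test). Leaving out pools, epithelial minus T-like ranged from 0.121 to 0.364 for Sprr1a, 0.0996 to 0.361 for Klk6, -1.45 to -1.30 for Klk8, 0.225 to 0.293 for Klk10 and 0.00655 to 0.0131 for Klk11, and epithelial minus macrophage-like from 0.115 to 0.382, 0.0529 to 0.339, 0.011 to 0.0568, 0.216 to 0.289 and 0.00938 to 0.0152.

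For the treatment, 1757 genes became 33 under limma-voom with the pool as a random block (consensus correlation 0.54), 0 with pool sums by edgeR, 984 with thinned cells, and 407 to 5469 when a pool was left out (407 without isotype pool 1, 5469 without isotype pool 2, 1251, 1046 and 1029 without B20-4.1.1 pools 1, 2 and 3), while DESeq2 gave 2149, no filter 1364 and without B20-4.1.1 pool 2 tumor 2 1308. Over the fits without a pool, Csn3 ranged from -0.077 to 0.41 (the negative value without isotype pool 1), Dsp from -0.90 to 0.50 (the positive value without isotype pool 1) and Ppl from -0.052 to 0.47 (the negative value without isotype pool 2). For the 2-tumor carriers, 27 genes became 86 with carriers set by the 4 kallikreins, 0 with a second thinning (430 at an unadjusted p under 0.05), 69 without the tumor block, 72 without a filter, 11 with DESeq2 and 487 in the 11-tumor comparison, which changes the samples and settings together. There Spint2 turned to 0.032 and the hypoxia score difference to -0.00863, and Fos turned to -0.042 without the filter. Carriers with at least 3 UMIs, or by Sprr1a alone, left no tumor with 20 carriers, and without B20-4.1.1 pool 3 there was none either. The 11-tumor comparison gave 257 to 449 genes when a pool was left out and the T-like comparison 5 to 11. The cause of these changes was not tested where the setting does not show it. No paired analysis was possible because pools of different treatments share only a number and every tumor had a single treatment. Depth limits the rarest members, with 133 Klk11 UMIs in 13412 cells.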
